A study of Mus musculus with 9 samples.

Results

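Triglyceride is built on a glycerol backbone by enzymes that add fatty acyl chains in sequence, is stored in lipid droplets, and is taken apart again by lipases. In the liver it is exported in lipoproteins or burned after lipolysis. Lipases on the vessel wall and fatty acid carriers in the cell membrane bring fatty acids back into cells. The 10 genes described here were chosen by name for these steps, with earlier results of these data known. *Gpam*, *Lpin1*, *Lpin2*, *Dgat1* and *Dgat2* stand for assembly, and *Pnpla2* and *Pnpla3* for lipolysis inside the cell. *Lpl* and *Lipc* stand for lipolysis outside the cell, and *Cd36* for uptake. All 10 are listed in both deposited tables, among 13259 genes that the tables share.

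RNA-seq was done on AML12 cells, a hepatocyte line established from a mouse transgenic for human TGF-alpha and grown with insulin, transferrin, selenium and dexamethasone. There were 9 libraries, 3 from cells infected with a control hairpin, 3 with Srrm2 shRNA 1 and 3 with Srrm2 shRNA 2, on day 5 of infection. *Srrm2* encodes a scaffold protein of nuclear speckles. All groups carried lentivirus and differed in the hairpin, and nothing in the labels says whether the libraries of a group came from separate cultures. The measure used is the authors' mean normalized count, which is the read count of a gene divided by a size factor for each library and averaged over the 6 libraries of a table. The table of shRNA 1 averages the control and shRNA 1 libraries, and the table of shRNA 2 is taken to average the same control libraries with those of shRNA 2. A single library, the spread between replicates and the depth per library cannot be read from such a mean, so the values below carry no error and no test was made. For the same reason the control cannot be separated from a hairpin, and the depletion of *Srrm2* itself (authors' means of 3428 and 3759 in the tables of shRNA 1 and shRNA 2) cannot be checked.

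The cells were checked against markers of their labelled type. All 9 hepatocyte markers on the list were listed, with *Ttr* and *Apob* above the 99th percentile of level per kilobase, while *Apoa1* lay at percentile 42.8 and *Ahsg* had an authors' mean of 7.92 in the table of shRNA 1. None of 5 adipocyte markers and none of 5 endothelial markers was listed. Of 5 macrophage markers 3 were listed, with authors' means that sum to 56.6 and 62.6 in the tables of shRNA 1 and shRNA 2, and *Emr1* (*Adgre1*) was not among them. Of 5 stellate cell and fibroblast markers 2 were listed, with sums of 11.9 and 9.66. Of 5 bile duct markers 4 were listed, led by *Krt19* at percentile 99.2, and *Epcam* was not listed. Whether cells of other types contributed to the values was not tested. In bulk RNA, fewer cells of a type and less RNA per cell cannot be told apart.

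To set genes side by side, the authors' mean was divided by the length of the union of all exons of the gene in GENCODE M1. On this scale the 10 genes spanned a 241-fold range in the table of shRNA 1, from *Gpam* at 273 per kilobase to *Lipc* at 1.13. The order was *Gpam*, *Pnpla2*, *Lpin2*, *Dgat2*, *Lpin1*, *Lpl*, *Dgat1*, *Cd36*, *Pnpla3* and *Lipc*, and it was the same in the table of shRNA 2. Both tables share the control libraries, so this agreement is not an independent repeat. The order of neighbours depended in part on the length used. With the longest transcript in place of all exons, *Lpl* passed *Lpin1*, and with the coding length *Lpin2* passed *Pnpla2*, and *Lpl* passed both *Lpin1* and *Dgat2*. *Gpam* stayed first and *Dgat1*, *Cd36*, *Pnpla3* and *Lipc* stayed last, in that order, with all 3 lengths.

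**Figure D1:**
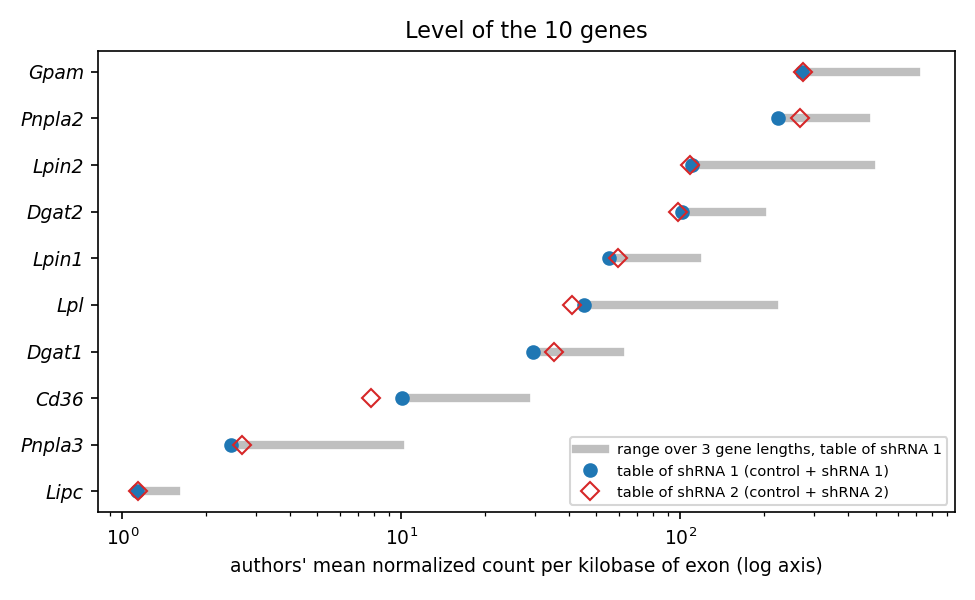
Level of each of the 10 genes as the authors' mean normalized count per kilobase of exon (log axis), in the table of shRNA 1 (filled circles) and in the table of shRNA 2 (open diamonds). The grey bar spans the values that 3 definitions of gene length give in the table of shRNA 1. *Gpam* is highest at 273 and *Lipc* lowest at 1.13, and for each gene the 2 tables lie close together beside the distance between the ends of the order.

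A difference between the hairpins can be read from the pooled means, in part. The authors' mean in the table of shRNA 2 was divided by that in the table of shRNA 1, expressed as a log2 ratio, and centred on the median of the 11451 genes whose means reached 10 in each table. Because the control libraries enter both means, the centred ratio is positive where a gene was higher with shRNA 2 than with shRNA 1, negative where it was lower, and smaller than the difference between the hairpins themselves. Its fold is thus a lower bound for the fold between the hairpins, as far as the median gene is a fair zero and apart from the error of the means, which is not known. A centred log2 ratio more than 0.25 above or below 0 is called past the fold. Of the genes above the minimum 14.4% were past the fold, 6.86% higher and 7.56% lower with shRNA 2. These were 786 and 866 genes, and without centring 1428 were higher and 503 lower. Among the 10 genes, 9 reached a mean of 10 in each table, and 1 of these 9, *Cd36*, was past the fold, which is near the background share. The median centred log2 ratio of the 9 genes was -0.06, beside 0 over all genes by construction.

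**Figure D2:**
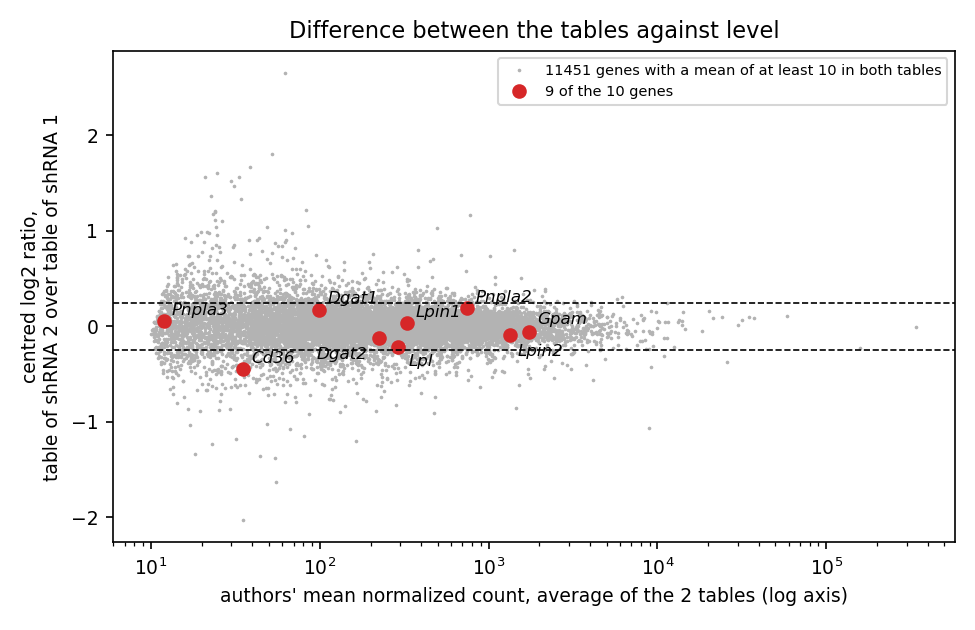
Centred log2 ratio of the table of shRNA 2 over the table of shRNA 1 against the authors' mean normalized count averaged over both tables (log axis), for the 11451 genes whose means reached 10 in each table (grey) and for 9 of the 10 triglyceride genes (red). Dashed lines mark 0.25 above and below 0. The spread of the grey points widens towards low means, and *Cd36*, at -0.45, is the red point outside the lines.

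The first acylation of glycerol 3-phosphate is carried out at the mitochondrial outer membrane by the product of *Gpam* (ENSMUSG00000024978.9). In the mm9 assembly, used for all gene positions here, *Gpam* spans 55142142 to 55201824 of chromosome 19 (- strand), and its longest transcript has 23 exons. The authors' means were 1730 and 1744 in the tables of shRNA 1 and shRNA 2, the highest of the 10 genes, and percentiles 91.7 and 91.4 of all listed genes by level per kilobase. Its centred log2 ratio was -0.06, between the quartiles of the 1343 genes with a mean of 1000 or more (-0.09 and 0.07), and without centring it was 0.01. Of the other genes for the first and second acylation, *Agpat6*, now named *Gpat4*, was higher per kilobase, at 365 in the table of shRNA 1, so that *Gpam* had 0.746 of its level. *Agpat9*, now *Gpat3*, was 53.3-fold lower than *Gpam* in the same table, and *Gpat2* was not listed. *Agpat1*, which adds the second chain, had authors' means of 422 and 372 and a centred log2 ratio of -0.26, just past the fold. It was -0.24 when centred on the sums of the means and -0.18 without centring, and so not past the fold in either case. *Agpat3* was not listed either. That a gene is not listed does not show that it was not expressed, since all but 1 of the genes in each table carry an adjusted p-value and genes without one may have been left out.

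Phosphatidate is turned into diacylglycerol by the lipins, which also act on transcription in the nucleus. *Lpin2* (ENSMUSG00000024052.10, chromosome 17, 71531900 to 71599157) had authors' means of 1342 and 1323, and *Lpin1* (ENSMUSG00000020593.7, chromosome 12, 16542475 to 16596576) had 318 and 342. Per kilobase of exon *Lpin2* was 1.98-fold above *Lpin1* in the table of shRNA 1 and 1.81-fold in the table of shRNA 2. This fold rests on the length, because the exons of the 14 annotated *Lpin2* transcripts cover 12233 bases while the longest transcript has 5640. With the longest transcript of each gene the fold in the table of shRNA 1 was 4.22. The centred log2 ratios of *Lpin2* and *Lpin1* were -0.09 and 0.03, both within 0.25 of 0. The third lipin, *Lpin3*, was the lowest of the family, at 8.75 per kilobase in the table of shRNA 1. Its authors' means were 32.3 in the table of shRNA 1 and 49.8 in that of shRNA 2, and its centred log2 ratio was 0.55. As far as the median gene is a fair zero, this ratio corresponds to a level at least 1.47-fold higher with shRNA 2 than with shRNA 1. Among genes with a mean of 10 to 100, 13.9% were past the fold in this direction, a share that counts every ratio above 0.25. At a fold of 0.5, which *Lpin3* also passed, 151 of the 11451 genes above the minimum were higher with shRNA 2.

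The last acylation is shared by *Dgat1* and *Dgat2*, which encode unrelated enzymes of the endoplasmic reticulum. *Dgat2* is mainly linked to newly made fatty acids and *Dgat1* to those taken up or recycled. *Dgat2* (ENSMUSG00000030747.4, chromosome 7, 106302173 to 106331223) had authors' means of 227 and 220. *Dgat1* (ENSMUSG00000022555.5, chromosome 15, 76332445 to 76342381) had 90.4 and 107. Per kilobase of exon *Dgat2* was 3.41-fold above *Dgat1* in the table of shRNA 1 and 2.78-fold in that of shRNA 2. With the longest transcript of each gene the fold in the table of shRNA 1 was 2.11. The centred log2 ratios lay on either side of 0, at -0.12 for *Dgat2* and 0.18 for *Dgat1*, and neither was past the fold. Of 6575 genes with a mean of 100 to 1000, such as *Dgat2*, 9.78% were past it in either direction. *Mogat2*, which makes diacylglycerol from monoacylglycerol, lies 36370 bases from *Dgat2* on chromosome 7 with no coding gene between them. It had authors' means of 12.3 and 19.5, the first close to the minimum of 10, and a centred log2 ratio of 0.60. As far as the median gene is a fair zero, and apart from the unknown error of the means, this is at least 1.51-fold higher with shRNA 2. Among genes with a mean of 10 to 100, 13.9% were past the fold in this direction, a share that counts every ratio above 0.25. *Dgat2*, whose means were higher, was not past the fold. *Mogat1* was not listed.

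Lipolysis inside the cell begins with adipose triglyceride lipase, the product of *Pnpla2*. *Pnpla3* encodes a related droplet protein whose variants in people are known for fatty liver. *Pnpla2* (ENSMUSG00000025509.8, chromosome 7, 148641097 to 148646642) had authors' means of 676 and 811. Its centred log2 ratio of 0.19 was the highest of the 9 genes. It lay above the upper quartile of genes with a mean of 100 to 1000 (0.08) and was not past the fold. Without centring the ratio was 0.26. *Pnpla3* (ENSMUSG00000041653.4, chromosome 15, 83998246 to 84019942) had 11.4 and 12.5, close to the minimum of 10, and a centred log2 ratio of 0.06. Per kilobase *Pnpla2* was 91.4-fold and 100.1-fold above *Pnpla3* in the tables of shRNA 1 and shRNA 2, and with the coding length it was 47.0-fold in the table of shRNA 1. *Abhd5*, the coactivator of *Pnpla2*'s product, had authors' means of 394 and 338. Its centred log2 ratio of -0.29 was past the fold and opposite in sign to that of *Pnpla2*, and without centring it was -0.22, no longer past it. Per kilobase of exon *Pnpla2* was accordingly 1.85-fold above *Abhd5* in the table of shRNA 1 and 2.59-fold in that of shRNA 2. In the table of shRNA 1 this fold was 2.06 with the longest transcripts and only 1.24 with the coding length. *G0s2*, which encodes an inhibitor of the same lipase, had means of 49.4 and 49.2 and a centred log2 ratio of -0.08. The hormone-sensitive lipase gene *Lipe* was 9.32-fold below *Pnpla2* per kilobase in the table of shRNA 1, the lysosomal lipase gene *Lipa* was the highest of this group at 299, and *Mgll*, *Ces1d* and *Aadac* were not listed.

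Of the lipases that act outside the cell, lipoprotein lipase is made mostly by muscle and fat and hepatic lipase by hepatocytes. In these cells *Lpl* was the higher of the pair. *Lpl* (ENSMUSG00000015568.8, chromosome 8, 71404390 to 71431347) had authors' means of 308 and 278, near the middle of all listed genes at percentiles 51.2 and 47.6. *Lipc* (ENSMUSG00000032207.8, chromosome 9, 70645936 to 70800033) had 2.38 and 2.39, below the minimum of 10, so it was not read for a difference. The lowest mean listed in the table of shRNA 1 was 1.56. Per kilobase *Lpl* was 40.0-fold above *Lipc* in the table of shRNA 1 and 35.8-fold in that of shRNA 2, and in the table of shRNA 1 it was 60.4-fold with the longest transcripts and 139-fold with the coding length. The centred log2 ratio of *Lpl* was -0.22, below the lower quartile of genes with a mean of 100 to 1000 (-0.09) and not past the fold. Among 9 regulators and relatives of these lipases on the list, 5 were listed. *Angptl4*, an inhibitor of lipoprotein lipase, had means of 295 and 289, and *Apoc2*, its cofactor, led the group at 116 per kilobase in the table of shRNA 1. *Gpihbp1*, which carries the lipase across capillary endothelium, was not listed, and neither were *Lipg*, *Apoc3* and *Apoa5*.

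*Cd36* (ENSMUSG00000002944.8) encodes a membrane protein that takes up long-chain fatty acids. It lies on the - strand of chromosome 5, from 17287508 to 17394777. The authors' means were 39.5 in the table of shRNA 1 and 30.5 in that of shRNA 2. Its centred log2 ratio was -0.45, the lowest of the 9 genes, and without centring it was -0.37. As far as the median gene is a fair zero, the centred ratio corresponds to a level at least 1.36-fold lower with shRNA 2 than with shRNA 1. Among the 3533 genes with a mean of 10 to 100, 12.2% were past the fold in this direction. This share counts every ratio past the fold, so it does not show how common a ratio as low as that of *Cd36* was. At a fold of 0.5, which *Cd36* did not reach, 140 of the 11451 genes above the minimum were lower with shRNA 2. Per kilobase *Cd36* lay at percentiles 22.8 and 19.6 in the tables of shRNA 1 and shRNA 2. The lipoprotein receptor gene *Vldlr* was 9.41-fold above it in the table of shRNA 1. Of the 9 genes of uptake reported here 5 were listed, and of these *Cd36* was the one past the fold. *Fabp5*, a fatty acid binding protein gene, had 95.7 per kilobase in the table of shRNA 1, and *Slc27a2*, *Slc27a5*, *Fabp1* and *Fabp4* were not listed.

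The sequence before the start site was compared for the genes with an entry in the RefSeq promoter table on GRCm38.p6, which holds 7 of the 10. Counts were taken in the 250 bases before the outermost start that the RefSeq table holds for each gene. For *Cd36* it holds 1 start, while GENCODE M1 has 4 transcripts, and starts outside the RefSeq table were not compared. The number of CG dinucleotides ranged from 1 for *Lpin1* to 26 for *Lpin2*, with 12 for *Pnpla2*, 11 for *Pnpla3*, 7 for *Gpam* and 3 for both *Cd36* and *Lipc*. The median over 27025 genes was 6 (quartiles 2 and 16). *Lpin2*, which had the most CG of the 7, and *Cd36*, the gene past the fold, are shown at chr17:71183282-71183531 on the + strand and chr5:17835897-17836146 on the - strand, with each CG in capitals.
Lpin2: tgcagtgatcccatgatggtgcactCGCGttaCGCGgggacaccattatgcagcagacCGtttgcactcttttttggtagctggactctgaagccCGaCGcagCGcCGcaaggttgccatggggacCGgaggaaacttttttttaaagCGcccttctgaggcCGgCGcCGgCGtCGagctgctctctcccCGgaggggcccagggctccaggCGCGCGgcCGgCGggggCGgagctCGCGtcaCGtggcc
Cd36: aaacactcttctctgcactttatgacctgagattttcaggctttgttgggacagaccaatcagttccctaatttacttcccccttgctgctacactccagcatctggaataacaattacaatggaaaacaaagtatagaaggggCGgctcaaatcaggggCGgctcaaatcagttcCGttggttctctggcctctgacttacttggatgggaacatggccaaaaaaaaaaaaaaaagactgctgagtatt
As many CG or more were held by 9.25% of the promoters for *Lpin2* and by 70.4% for *Cd36*. The order of CG counts was not that of the levels, since *Pnpla3* had more CG than *Gpam* while its level per kilobase was far lower. Which start site was used in AML12 cells was not measured.

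The genes were also checked for sequence shared with other annotated genes, which a count of unique reads could lose. No exon of the 10 genes overlaps an exon of another gene on either strand in GENCODE M1. Of all stretches of 50 bases in the longest coding transcript, 3.79% of *Lpl* and 0.131% of *Pnpla3* occur in coding transcripts of other genes, and 0% in the other 8 genes. *Pnpla2* shares no such stretch with *Pnpla3*, nor *Dgat1* with *Dgat2*, *Lpin1* with *Lpin2*, or *Lpl* with *Lipc*. Pseudogenes and other sequence outside coding transcripts were not searched for these stretches, so reads lost to them cannot be judged.

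The 54 other genes of the pathway were taken from lists of the steps that surround the 10 genes. Of these 35 were listed in both tables and 19 in neither, and 34 reached a mean of 10 in each. Past the fold, 2 were higher with shRNA 2 (*Lpin3* and *Mogat2*) and 3 were lower (*Agpat1*, *Plin4* and *Abhd5*). These 5 genes are 14.7% of the 34, near the 14.4% of all genes. The median centred log2 ratio of the 34 was -0.05, with 12 above 0 and 22 below. Without centring the median was 0.02, with 19 above 0 and 15 below, and *Lpin3*, *Mogat2* and *Plin4* were the genes past the fold. *Plin4*, a droplet coat protein gene, had the lowest ratio of the whole pathway, with authors' means of 87.8 and 55.3 and a centred log2 ratio of -0.74. As far as the median gene is a fair zero, this is at least 1.67-fold lower with shRNA 2, and without centring the ratio was -0.67. The main droplet coat genes were higher and closer to 0. *Plin2* had means of 2604 and 2480 and a ratio of -0.14, and *Plin3* had means of 745 and 715 and a ratio of -0.13. *Plin1*, *Plin5*, *Cidea* and *Fitm1* were not listed. Among the enzymes that activate fatty acids, *Acsl5* had 912 per kilobase of exon in the table of shRNA 1, 3.34-fold above *Gpam*, from which it lies 126034 bases away on chromosome 19. *Acsl6* was not listed, and the 4 listed synthetase genes had ratios between -0.06 and 0.02. *Gpd1*, which supplies glycerol 3-phosphate, had means of 581 and 558 and a ratio of -0.13.

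**Figure D3:**
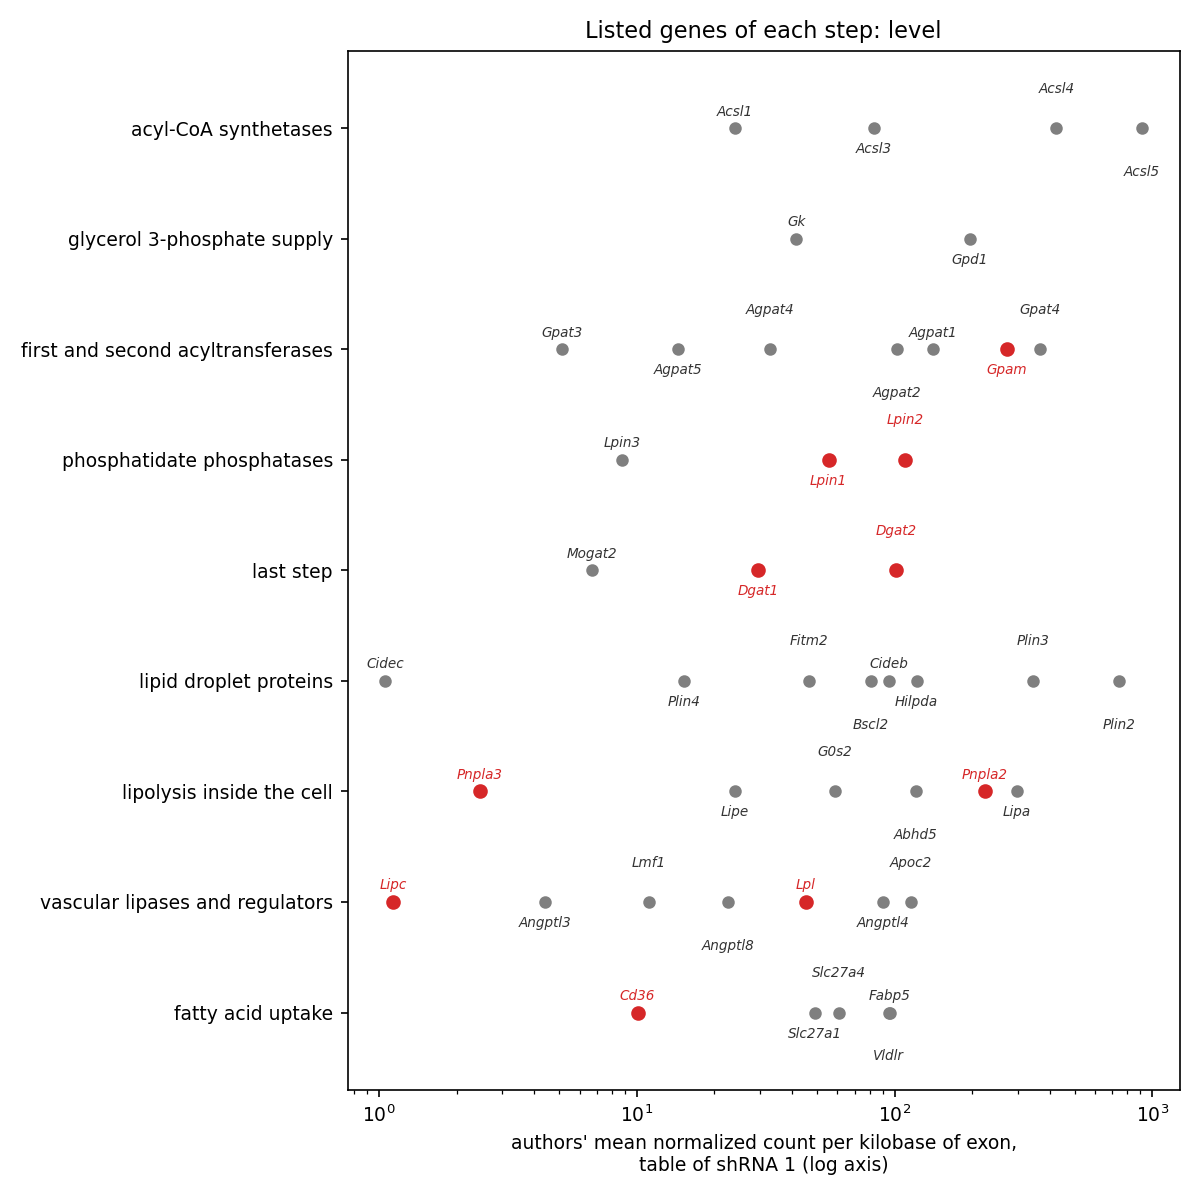
Level of each listed gene of the pathway by step, as the authors' mean normalized count per kilobase of exon in the table of shRNA 1 (log axis), with the 10 genes in red and the others in grey under their current names. The points lie between *Cidec* at 1.06 and *Acsl5* at 912. *Lpin2* and *Dgat2* are first in their steps, and *Gpam*, *Lpin1*, *Dgat1* and *Pnpla2* are second. The steps of the lipins and of *Dgat1* and *Dgat2* have only 3 listed genes each.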

How the data were processed

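Reads were trimmed and mapped to mm9 with TopHat2 by the authors, who took unique pairs into HTSeq counts for GENCODE M1 genes and fitted DESeq2 (version 1.8.2) once per hairpin. The labels give total RNA as the molecule, while the methods name polyA-enriched, strand-specific libraries. The signal used is the authors' deposited mean of normalized counts in each of 2 tables, pooled over 6 libraries. Groups were taken from the sample titles. The descriptions of 2 of the control libraries name result tables of other hairpins, so that the same controls enter both tables is an inference. The deposited tables also hold log2 fold changes, standard errors, test statistics and p-values of the authors' own comparisons, which were not used. The tables list 13424 and 13478 genes, all matched to GENCODE M1 on NCBIM37, the assembly of mm9. Their means sum to 6144608 and 6393456.

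Means were divided by exon length for levels, and the ratio of the tables was centred on its median (0.07 on the log2 scale). The ratio was tested on simulated data in which only genes with a mean of at least 100 were changed. That test does not cover the lower means of *Cd36*, *Lpin3*, *Mogat2* and *Plin4*. The members and gene lists were chosen with earlier results of these data known. Named are the 10 genes, and from the lists the highest genes per kilobase of exon, those past the fold and those not listed; a few others of known role, and the marker genes, were named after their values were seen. 1 gene of the lists is not reported here. Alternatives were other lengths, centrings, folds and minimum means, and those for pathway genes, for folds between genes, and the uncentred count over all genes were added after seeing the data. Python 3.11.15, numpy 2.4.6, pandas 2.3.3 and matplotlib 3.10.9 were used.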

Additional observations from a re-analysis of the deposited data

How the results depend on the processing

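No paired analysis was possible because the tables hold no value per library, and for the same reason no replicate could be left out. Without centring, 2 of the 9 genes were past the fold in place of 1, the second being *Pnpla2* at 0.26. Centring on the sums of the means or on genes with a mean of at least 100 left *Cd36* as the one gene past it. The number of all genes past the fold, 786 higher and 866 lower with shRNA 2, became 151 and 140 at a fold of 0.5, 271 and 399 at a minimum mean of 100, 1308 and 1338 with no filter on low values, and 1428 and 503 without centring. Of the 5 other pathway genes past the fold, *Agpat1* was lost when centred on the sums of the means, and *Agpat1* and *Abhd5* without centring. With the coding length the span of the 10 genes was 449-fold in place of 241-fold, and *Plin2* rather than *Acsl5* was the highest of the pathway genes reported, as it was with the longest transcript. Depth limits *Lipc* and *Pnpla3* most, whose means are the lowest of the 10.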
